A study of Homo sapiens with 3 samples.

Results

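Homologous recombination and the Fanconi anaemia pathway repair broken and crosslinked DNA, and the messages of 36 genes of these pathways were followed on arrays of PANC-1, a cell line from a human pancreatic carcinoma. The genes were listed by name, and each had at least 1 of the 50 probes matched to them, out of 19699 genes with a matched probe. There was 1 array for control cells, 1 for cells given 20 µM cantharidin and 1 for cells given 20 µM okadaic acid. The treatment time was 24 h. Cantharidin and okadaic acid both inhibit protein phosphatase 2A (PP2A), and the study set them side by side in work on PP2A inhibition and the formation of blood vessels. The treatment description names the dose before cantharidin only, whereas the label of the okadaic acid sample repeats it. With a single array per group there was no replicate, no test across arrays was possible, and variation between cultures was not measured.

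A break in both DNA strands is first cut back to single-stranded ends, which are then used to search the sister chromatid for a template. The Fanconi proteins recognise crosslinks that join the strands, attach ubiquitin to FANCD2 and FANCI, and hand the damage to the recombination machinery. Most of these genes are expressed most strongly while cells copy their DNA, and tumours that lose BRCA1, BRCA2 or PALB2, pancreatic ones included, depend on other repair routes.

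A level below is the spot intensity of a probe, and a difference is the change in log2 intensity after each array was scaled to its own 75th percentile, which was 784 in control, 713 in cantharidin and 936 in okadaic acid cells. The lowest intensity of a probe well above background was 35.0, 21.9 and 58.0 on these arrays, so the okadaic acid array measured faint messages least well. Where a gene had several probes, the one with the highest mean signal stood for it, and a gene was called at a 1.5-fold difference. Spots of the same probe varied little, with a median SD of 0.06 to 0.09 on the log2 scale, and the median SD of a difference between single spots was at most 0.11. All 5 epithelial markers (KRT8, KRT18, KRT19, KRT7 and EPCAM) were well above background on every array. Of 12 measured markers of fibroblasts, blood cells, vessels and acinar cells, 8 or 9 were also above background on each array. Their summed intensity was 3892 in control, 2582 with cantharidin and 3033 with okadaic acid, and that of the epithelial markers 146317, 164573 and 269029.8. Single markers moved with treatment, and in either direction. COL1A1 of fibroblasts was lower by at least 21.9-fold and 10.9-fold, while COL3A1 was 2.69-fold higher with cantharidin and 1.58-fold lower with okadaic acid. EPCAM was 3.42-fold and 2.20-fold lower, while KRT18 was 1.99-fold and 2.29-fold higher. The part of the markers in the results was not tested.

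On at least 1 array, 32 of the 36 genes were well above background. BRCA2, BRIP1 and MRE11 were not well above background on any array, and the single spot of NBN carried an outlier flag on the control array. Under cantharidin, 23 of 32 genes (71.9%) were at least 1.5-fold lower and 0 were higher, while over all 16644 genes compared 34.1% were lower and 27.5% higher. Under okadaic acid, 14 of 32 genes (43.8%) were lower and 3 were higher, beside 28.8% lower and 28.1% higher of all 16166 genes. The 32 genes had a median difference of -1.34 with cantharidin and of -0.46 with okadaic acid, where the medians over all genes were -0.16 and 0.01. The control array was shared by the comparisons. Without scaling, the okadaic acid counts became 12 lower and 7 higher, beside 22.4% lower and 36.6% higher of all genes. Since a gene can pass the background filter through 1 array alone, the counts were repeated over the 28 genes above background on all arrays. Of these, 20 were lower under cantharidin, beside 33.0% of all genes so filtered, and 11 were lower and 3 higher under okadaic acid, beside 27.3% and 28.2%.

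**Figure D1:**
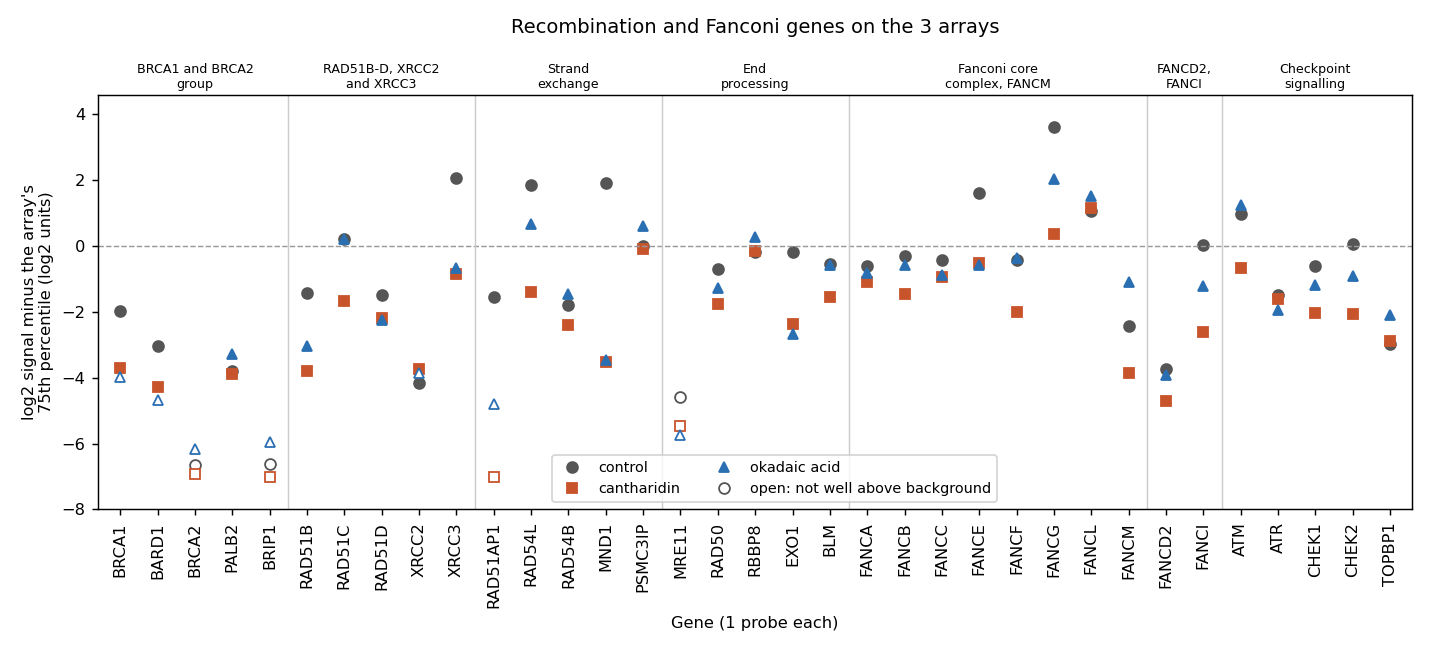
Signal of each gene on the control (circles), cantharidin (squares) and okadaic acid (triangles) arrays, as log2 intensity minus the array's 75th percentile, for the 35 genes with a value. Open symbols were not well above background, and symbols are to be compared within a gene only. MND1 falls from 1.90 to -3.53 and -3.47, while FANCM lies at -2.44 in control, -3.86 with cantharidin and -1.08 with okadaic acid.

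The genes that act during strand exchange held the largest differences. MND1, which forms a complex with PSMC3IP (HOP2) and is best known from meiosis, had an intensity of 2927 in control cells, 61.8 under cantharidin and 84.5 under okadaic acid. This was 43.0-fold lower with cantharidin and 41.4-fold lower with okadaic acid, so the treated arrays were both far below control and differed from each other by 1.04-fold. With the normexp background correction, which adds an offset to every signal, the folds were 19.6 and 19.8, and the deposited table gave 64.0-fold with okadaic acid. Its partner PSMC3IP did not follow. PSMC3IP gave 777, 675 and 1421 in the same order, a 1.53-fold higher signal with okadaic acid and a difference of 1.05-fold with cantharidin. The higher value passed 1.5-fold narrowly and was lost in 3 of 11 alternative settings.

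RAD51AP1, which promotes the pairing of DNA strands, had an intensity of 269.7 in control cells and was not well above background on the treated arrays, at 5.49 and 33.4. Its signal was lower by at least 11.2-fold with cantharidin and by at least 5.55-fold with okadaic acid, bounds that rest on the background correction used, since normexp gave 4.69-fold and 3.39-fold. RAD54L, a motor protein that moves along DNA and aids strand invasion, gave 2817, 267 and 1493 in the same order. The fall was 9.58-fold with cantharidin and 2.25-fold with okadaic acid, which left the okadaic acid array between the other arrays. RAD54B, its relative, stood at 225, 135 and 343 as means of 10 spots, and its spots ranged from 206 to 253 in control, 113 to 164 under cantharidin and 318 to 376 under okadaic acid. The spots of the arrays did not overlap, but the differences were small, at -0.60 ± 0.06 (SE over spots) under cantharidin and 0.35 ± 0.04 under okadaic acid. The cantharidin value was just past 1.5-fold and was lost in 6 of 11 alternative settings. A second, fainter RAD54B probe differed by 1.17-fold with cantharidin and was 2.44-fold higher with okadaic acid, at 128 against 43.9 in control.

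Promoters of RAD51AP1, MND1 and RAD54L, strand exchange genes lower with each agent, are shown with that of FANCM, whose difference changed sign between the agents. Each is the 120 bases before the annotated start in RefSeq (GRCh38.p14), on the plus strand, at chr12:4538770-4538889, chr4:153344568-153344687, chr1:46247568-46247687 and chr14:45135810-45135929. Capitals mark motif words that were searched for, namely the E2F words TTTCCCGC, TTTCGCGC, TTTGCCGC and TTTGGCGC, the CHR word TTTGAA and the word CCAAT, on both strands. Matches of different words were allowed to overlap, and each of these windows held 1 match.
RAD51AP1: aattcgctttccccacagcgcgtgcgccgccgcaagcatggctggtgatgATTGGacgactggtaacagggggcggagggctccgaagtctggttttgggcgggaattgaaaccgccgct
MND1: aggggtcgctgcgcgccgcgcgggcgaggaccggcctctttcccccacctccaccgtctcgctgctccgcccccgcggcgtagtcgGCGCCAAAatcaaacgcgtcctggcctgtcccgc
RAD54L: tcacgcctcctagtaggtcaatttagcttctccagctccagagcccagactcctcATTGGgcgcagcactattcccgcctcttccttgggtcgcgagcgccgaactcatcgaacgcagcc
FANCM: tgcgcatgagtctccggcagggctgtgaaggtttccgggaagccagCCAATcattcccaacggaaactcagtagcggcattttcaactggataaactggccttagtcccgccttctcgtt

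The MND1 window held the E2F word TTTGGCGC on the minus strand. The base of this match furthest from the start lay 34 bases before it, and the next positions are counted in the same way. RAD51AP1 and RAD54L each held CCAAT on the minus strand, 70 and 65 bases before the start, and FANCM held it on the plus strand 74 bases before the start. Over the 250 bases before the start, 33 of the 36 genes had 46 listed promoters. CCAAT was found in 20 of these (43.5%), beside 32.0% of all 35116 promoters, the E2F words in 3 (6.52%, beside 2.79%) and TTTGAA in 3 (6.52%, beside 13.3%). Promoters of a gene can overlap and share a site. Counted by gene, the shares were 45.5% beside 37.0% for CCAAT, 9.09% beside 3.40% for E2F and 9.09% beside 16.1% for TTTGAA. The E2F words were in promoters of FANCA, FANCC and MND1, and TTTGAA in those of ATM, BRIP1 and FANCC. CCAAT was in those of ATM, BLM, BRCA1, BRIP1, CHEK1, CHEK2, FANCA, FANCF, FANCM, MRE11, PALB2, PSMC3IP, RAD51AP1, RAD54L and XRCC3. These include genes called lower, genes not called and genes dim on every array. A match is a description of the letters and says nothing about binding.

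The genes of the BRCA1 and BRCA2 group gave low signals. BRCA1, which with BARD1 forms a ubiquitin ligase that directs repair towards recombination, had a mean of 199 over 10 spots in control cells (174 to 211), 54.8 under cantharidin (47.6 to 60.6) and 59.1 under okadaic acid (46.0 to 83.1). No treated spot reached a control spot. The cantharidin difference of BRCA1 was -1.72 ± 0.04 (SE over spots), or 3.29-fold lower. With okadaic acid BRCA1 was not well above background. Its dim signal was 4.01-fold lower as measured, which is not a firm bound, since its spots reached 83.1. The normexp values for BRCA1 were smaller, at 1.89-fold and 2.14-fold. BARD1 gave 95.0, 36.5 and 36.5, which was 2.37-fold lower with cantharidin and lower by at least 1.95-fold with okadaic acid. BARD1 stayed within 1.5-fold for each agent with the normexp background correction, at -0.39 and -0.53. PALB2, which links BRCA1 to BRCA2, was not called, with 56.3, 48.0 and 96.3 and differences of -0.09 and 0.52. BRCA2, a mediator of recombination, gave 7.82, 5.86 and 13.1 as means of 10 spots, and the helicase BRIP1 gave 8.04, 5.48 and 15.1. These lay below the lowest reliable intensity of each array, so no fold is given.

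RAD51B, RAD51C, RAD51D, XRCC2 and XRCC3 are related proteins that assist recombination, and they split. XRCC3, which works with RAD51C, had an intensity of 3313 in control cells, 395 under cantharidin and 590.0 under okadaic acid, so it was 7.62-fold and 6.70-fold lower. RAD51C itself gave 902, 224 and 1093. It was 3.66-fold lower under cantharidin and differed by 1.02-fold under okadaic acid, and neither reading changed in any of the 11 alternative settings. RAD51C had 1 probe, above background on every array, so the settings for filters, probe choice and dim signals could not change it. RAD51B gave 292, 51.0 and 114, which was 5.21-fold and 3.06-fold lower, the former 2.71-fold with normexp. Its second probe was dim, not well above background, on every array. For RAD51D the probe with the highest mean gave 282, 158 and 197 (1.62-fold and 1.71-fold lower, each call lost in 2 of 11 alternative settings). The other RAD51D probes showed larger differences. One gave 320.1, 65.9 and 82.2 (4.41-fold and 4.65-fold lower). The other had a control intensity of 159 and was 4.02-fold and 3.22-fold lower, the latter against a dim okadaic acid signal as measured. XRCC2 was not called. Its intensities were 43.9, 53.4 and 64.5, close to the lowest reliable signals, with differences of 0.42 and 0.30.

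**Figure D2:**
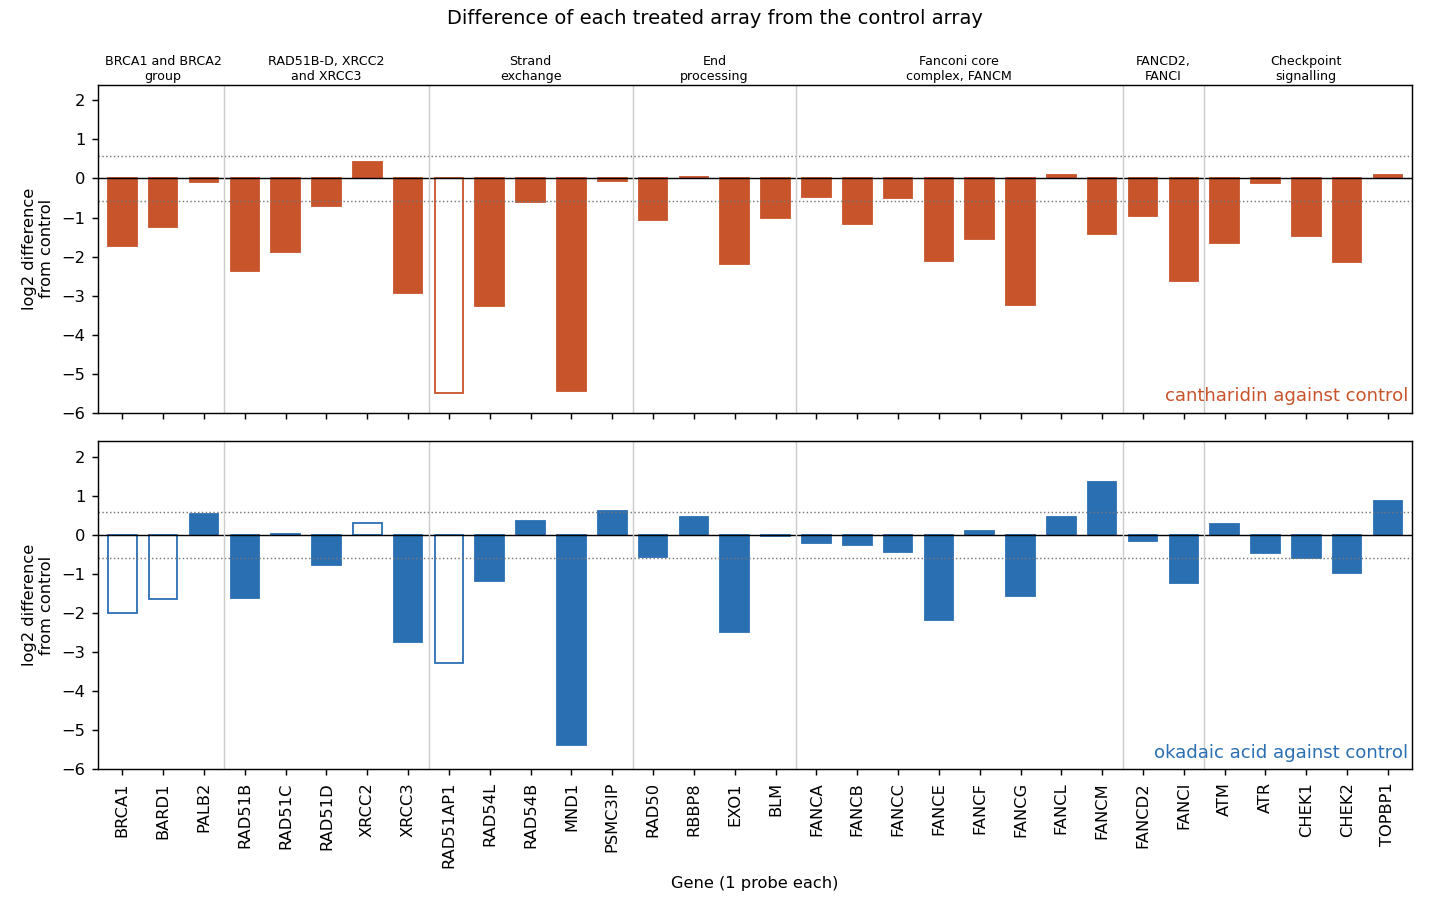
Difference in log2 signal of the cantharidin array (upper panel) and the okadaic acid array (lower panel) from the same control array, for 32 genes ordered by role. Dotted lines mark 1.5-fold, and open bars mark genes that were dim (not well above background) on 1 compared array. In the upper panel 23 bars pass the lower line and 0 the upper line, and in the lower panel 14 pass the lower and 3 the upper line.

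Among genes that process DNA ends, EXO1 was the one with a large difference for each agent. EXO1, an exonuclease that lengthens the single-stranded end, had means of 695, 139 and 147 over 10 spots, with spots from 649 to 740.4 in control, 131 to 147 under cantharidin and 125 to 161 under okadaic acid. The differences were -2.19 ± 0.03 and -2.49 ± 0.05 (SE over spots), or 4.55-fold and 5.64-fold lower. Before scaling, the spot intensities of the treated arrays overlapped each other but not those of control. After scaling, the okadaic acid array was lower than the cantharidin array by -0.31 ± 0.05 for EXO1. The okadaic acid value of EXO1 was 3.71-fold with normexp. RAD50, which with MRE11 and NBN forms the complex that first binds the break, gave 482, 209 and 387 over 10 spots. It was 2.09-fold lower with cantharidin (-1.06 ± 0.03), and its okadaic acid difference of 1.49-fold (-0.57 ± 0.02) fell just short of 1.5-fold. BLM, a helicase that dissolves joined DNA molecules, gave 539, 242 and 629.8. It was 2.02-fold lower under cantharidin and differed by 1.02-fold under okadaic acid.

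RBBP8 (CtIP), which starts the cutting back of ends, was not called, with 685, 636 and 1123 and differences of 0.03 and 0.46. MRE11 was dim, not well above background, on every array, with intensities of 32.5, 16.0 and 17.7. NBN gave 387 on the control array, where its spot carried the outlier flag, 9.43 under cantharidin, where it was not well above background, and 131 under okadaic acid. No difference is given for it.

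The Fanconi core complex attaches ubiquitin to FANCD2 and FANCI, and FANCM anchors it to DNA. FANCG had the largest difference of the group under cantharidin, with 9479 in control, 909 under cantharidin and 3813 under okadaic acid, or 9.48-fold and 2.97-fold lower. FANCE, the subunit that contacts FANCD2, gave 2394, 499 and 632, so it was 4.36-fold and 4.52-fold lower. FANCL, the ubiquitin ligase of the complex, did not move with them. It gave 1626, 1573 and 2661, with differences of 0.09 and 0.46, and its other probe gave 0.12 and 0.11.

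FANCM passed 1.5-fold in opposite directions for the agents. The intensity of this DNA translocase was 145 in control, 48.9 under cantharidin and 444 under okadaic acid. It was 2.69-fold lower with cantharidin and 2.56-fold higher with okadaic acid, and each direction was past the threshold in all 11 alternative settings, with ranges from -1.64 to -0.75 and from 0.86 to 1.61. The smallest cantharidin fold, 1.68, came with normexp. FANCM had 1 probe with a single spot. As this probe was above background on every array, the settings for filters, probe choice and dim signals could not change it.

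FANCB and FANCF were lower under cantharidin. FANCB gave 638, 259 and 631, a 2.24-fold lower signal with cantharidin and a difference of 1.21-fold with okadaic acid. For FANCF, the probe used gave 577, 178 and 731 and the other probe 631, 201 and 428. The probes were close under cantharidin, at 2.95-fold and 2.85-fold lower, but differed under okadaic acid, at 1.06-fold higher and 1.76-fold lower.

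FANCA and FANCC depended on the probe. The FANCA probe used gave 513, 334 and 530.4, with differences of -0.48 and -0.21, and a second gave 401, 360.2 and 537, with -0.02 and 0.16. Another FANCA probe, with 10 spots, had means of 138, 146 and 577, and its spots ranged from 126 to 160.5 in control, 126 to 172 under cantharidin and 537 to 605 under okadaic acid. This probe was 3.51-fold higher with okadaic acid, a difference of 1.81 ± 0.04 (SE over spots), and differed by 1.17-fold with cantharidin. The FANCC probe used gave 577, 369 and 506, with differences of -0.51 and -0.45, while the other gave 952, 148 and 524, or 5.84-fold and 2.17-fold lower. Why the probes of a gene differed was not tested.

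**Figure D3:**
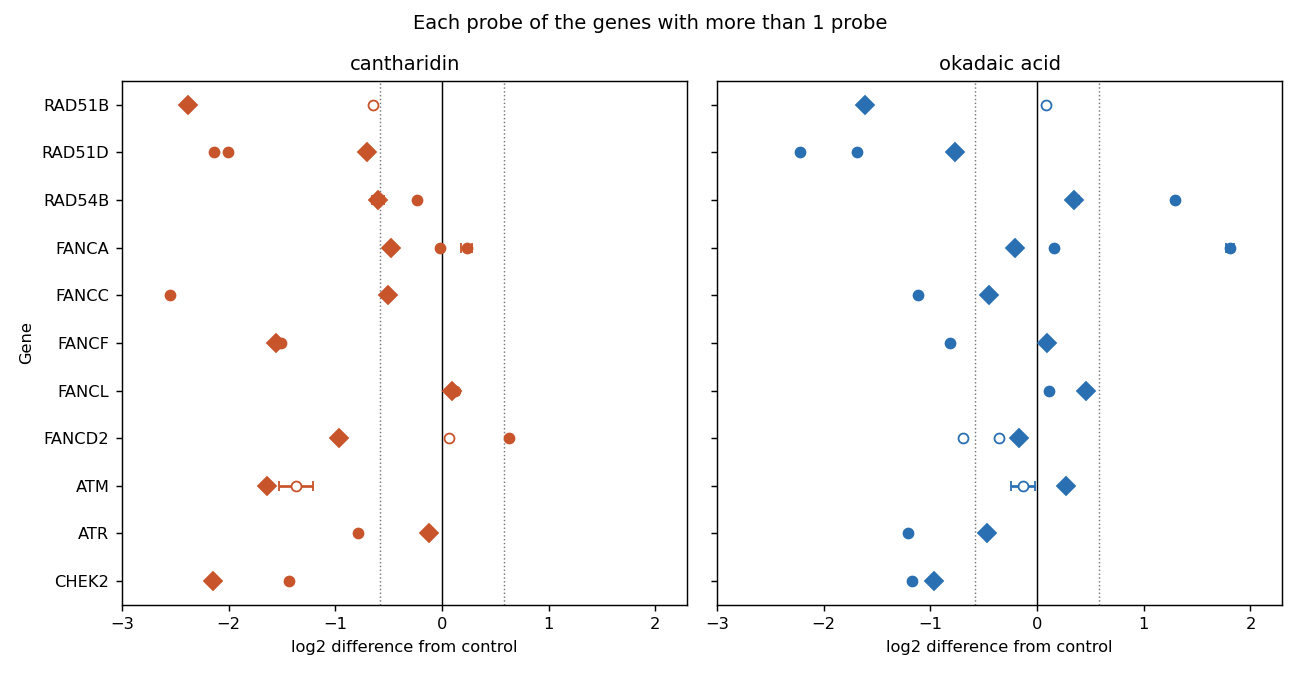
Difference in log2 signal from control for every probe of the 11 genes with more than 1 probe, under cantharidin (left) and okadaic acid (right). Diamonds are the probes used for the gene, circles the others, open symbols were not well above background on either array, and bars are the SE over 10 spots where a probe had them. The FANCA probes spread from -0.21 to 1.81 under okadaic acid, and the FANCC probes from -2.55 to -0.51 under cantharidin.

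FANCI and FANCD2 form the clamp that carries the ubiquitin. FANCI gave 798, 117 and 407, a fall of 6.20-fold with cantharidin (3.92-fold with normexp) and of 2.34-fold with okadaic acid. FANCD2 was near the limit of measurement. Its probe used gave 58.6, 27.2 and 62.3, or 1.96-fold lower with cantharidin, a call lost in 3 of 11 alternative settings, and a difference of 1.12-fold with okadaic acid. A second FANCD2 probe was well above background under cantharidin only, at 21.0, 29.6 and 19.5, and allowed no fold. Its cantharidin difference of 0.63 pointed the other way from the probe used (-0.97), each past 1.5-fold. The median over these probes was -0.17, within the threshold. A further FANCD2 probe gave 26.6, 25.3 and 19.7 and was dim, not well above background, on every array. FANCD2 has pseudogene copies in the genome, and binding of their transcripts to these probes was not tested.

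Genes of DNA damage signalling included several called genes. CHEK2, the kinase activated by ATM, gave 822, 168 and 502, a fall of 4.43-fold with cantharidin and of 1.95-fold with okadaic acid, and its other probe was 2.70-fold and 2.25-fold lower. CHEK2 also has pseudogene copies, whose part in the signal was not tested. CHEK1, the kinase activated by ATR, gave 519, 172 and 409. Its fall was 2.74-fold with cantharidin and 1.51-fold with okadaic acid, and the latter was lost in 4 of 11 alternative settings. ATM gave 1547, 451 and 2228, so it was 3.12-fold lower under cantharidin and 1.21-fold higher, within the threshold, under okadaic acid. The other ATM probe, with 10 spots, was dim, not well above background, on every array.

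ATR was not called on the probe used, with 282, 235 and 243 and differences of -0.12 and -0.47. Its other probe gave 55.6, 29.3 and 28.8. This was 1.73-fold lower with cantharidin, against the dim signal as measured, and at least 1.14-fold lower with okadaic acid. TOPBP1, which activates ATR, was higher under okadaic acid. It gave 98.8, 96.2 and 216, a 1.83-fold rise with okadaic acid beside a difference of 1.07-fold with cantharidin. With the normexp background correction the okadaic acid difference of TOPBP1 was 0.43, within 1.5-fold.

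The treated arrays were then set against each other. Of 31 genes above background on at least 1 of them, 17 (54.8%) were at least 1.5-fold higher with okadaic acid than with cantharidin and 0 were lower, beside 29.5% higher and 22.3% lower of all 16200 genes. The median difference was 0.68 for these genes and 0.13 for all genes. FANCM (6.90-fold), RAD54L (4.25-fold), ATM (3.76-fold), RAD51C (3.72-fold), FANCG (3.19-fold) and FANCF (3.12-fold) were furthest apart. Each of these stayed past 1.5-fold in all 11 alternative settings, FANCM at its lowest with 3.07-fold under normexp. The settings for filters and dim signals could not change them, as the probes used were above background on every array. MND1, XRCC3, EXO1 and FANCE, which were at least 4-fold below control with each agent, differed between the treated arrays by 1.04-fold, 1.14-fold, 1.24-fold and 1.04-fold. As they were picked for low values on each treated array, their closeness there was partly set by the choice. MND1, at 84.5 with okadaic acid, was also near the lowest reliable intensity of that array, 58.0. At a 2-fold threshold, 8 genes were higher with okadaic acid, beside 16.5% of all genes.

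**Figure D4:**
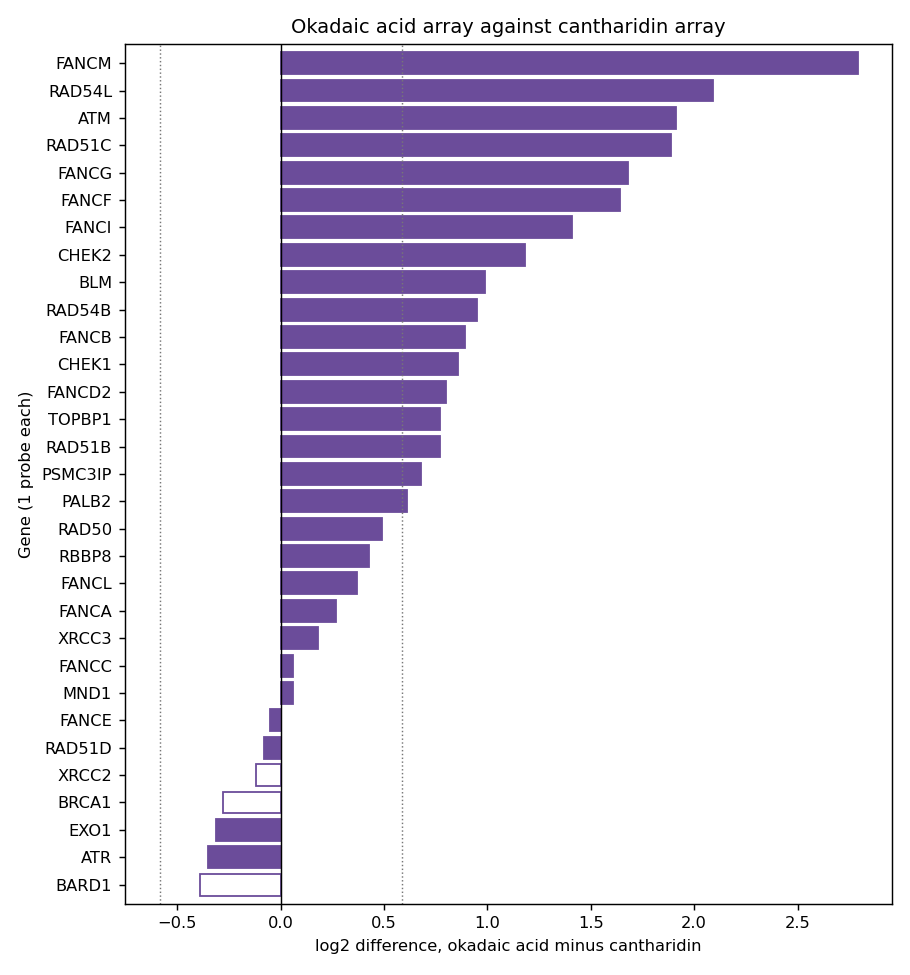
Difference in log2 signal between the okadaic acid and the cantharidin array for 31 genes, in order of size. Dotted lines mark 1.5-fold, and open bars mark genes that were dim on 1 array. FANCM leads at 2.79, followed by RAD54L at 2.09, and no gene passes the lower line.

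By role, the count of lower genes under cantharidin was 2 of 3 in the BRCA1 and BRCA2 group, 4 of 5 in the group of RAD51B, RAD51C, RAD51D, XRCC2 and XRCC3, 4 of 5 strand exchange genes, 3 of 4 end processing genes, 5 of 8 genes of the core complex with FANCM, 2 of 2 for FANCD2 and FANCI and 3 of 5 signalling genes. Under okadaic acid the same counts were 2 of 3, 3 of 5, 3 of 5, 1 of 4, 2 of 8, 1 of 2 and 2 of 5. Over all genes, 34.1% were lower under cantharidin and 28.8% under okadaic acid. With okadaic acid, 25.0% of the end processing genes and 25.0% of the core complex genes with FANCM were lower, near that share. With 2 to 8 genes compared per group, 1 gene changes a share widely. RAD50, just short of 1.5-fold, was called in 3 of 11 alternative settings. The lower BRCA1 and BARD1 were not well above background on the okadaic acid array. The cantharidin call of FANCD2 depended on the probe. For the core complex genes with FANCM the median difference was -1.30 with cantharidin and -0.24 with okadaic acid, and for the strand exchange genes -3.26 and -1.17.

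Other genes of these and related pathways were counted as separate lists. The shares of all genes, to be set beside each list, were 34.1% lower and 27.5% higher under cantharidin. Under okadaic acid they were 28.8% and 28.1%. Of 24 other recombination genes compared, 8 (33.3%) were lower and 6 (25.0%) higher under cantharidin. Under okadaic acid, 9 (37.5%) were lower and 10 (41.7%) higher. The medians were -0.06 and -0.07. RMI2, a partner of BLM, was 30.2-fold and 11.3-fold lower. RPA3, a subunit of the complex that coats single-stranded DNA, was 6.28-fold and 2.86-fold lower. MCM9, a helicase of recombination, differed by 1.09-fold with cantharidin and was 5.45-fold higher with okadaic acid. Of 15 other Fanconi genes, a list that overlaps with the former, 7 (46.7%) were lower and 5 (33.3%) higher under cantharidin. Under okadaic acid, 8 (53.3%) were lower and 2 (13.3%) higher. UBE2T, which works with FANCL to attach ubiquitin, gave 23817, 570.1 and 4879.9, or 38.0-fold and 5.83-fold lower. CENPS, a partner of FANCM, was 5.99-fold and 3.40-fold lower.

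Of 18 other checkpoint genes, 5 (27.8%) were lower and 1 (5.56%) was higher under cantharidin. Under okadaic acid, 7 (38.9%) were lower and 4 (22.2%) higher. In this list ABRAXAS1, a partner of BRCA1, was 3.29-fold lower with cantharidin and lower by at least 3.14-fold with okadaic acid. TP53BP1, which opposes end cutting, differed by 1.33-fold with cantharidin and was 3.24-fold higher with okadaic acid. End joining, the competing route for repair of breaks, had 5 lower (38.5%) and 4 higher (30.8%) of 13 genes under cantharidin. Under okadaic acid it had 4 lower (33.3%) and 3 higher (25.0%) of 12. PARP1 was 4.55-fold and 2.54-fold lower, PRKDC 3.30-fold and 4.42-fold lower, and POLM was higher with each agent, at 2487, 9036 and 10769.7.

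Mismatch repair had 4 of 7 genes lower for each agent and 0 higher, and excision repair 7 lower and 2 higher of 18 under cantharidin and 9 lower and 4 higher under okadaic acid. MSH6, which takes part in mismatch detection, was 5.69-fold lower with cantharidin and differed by 1.01-fold with okadaic acid. The MCM helicase, which unwinds DNA for copying, had 6 of 6 genes lower under cantharidin and 5 of 6 under okadaic acid, with medians of -2.26 and -1.76. The part of cell cycle phase or cell number in any of these differences was not tested, since bulk RNA does not tell fewer cells in DNA synthesis from less message per cell.

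**Figure D5:**
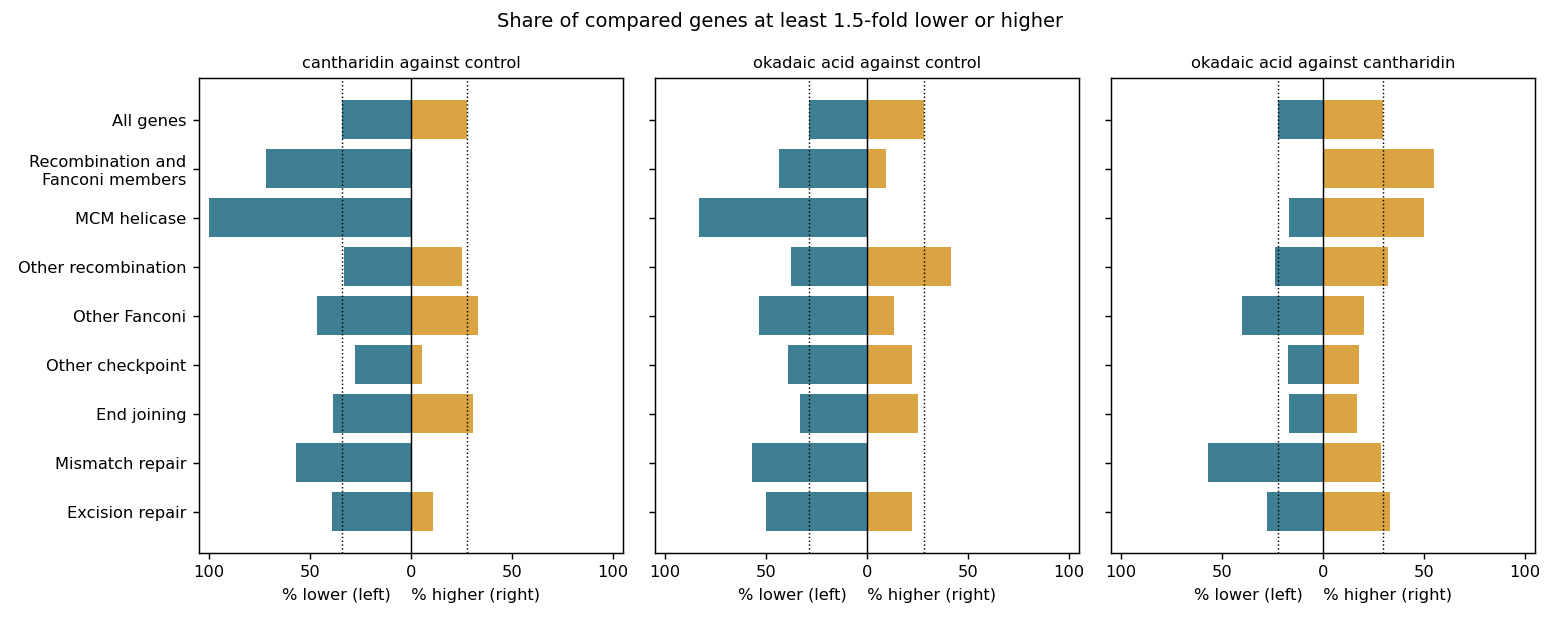
Share of compared genes at least 1.5-fold lower (left of 0, in percent) and higher (right of 0, in percent) for all genes, the recombination and Fanconi genes and 7 other lists, in the 3 comparisons. Dotted lines mark the shares of all genes. The recombination and Fanconi genes reach 71.9% lower under cantharidin, 43.8% lower under okadaic acid and 54.8% higher in okadaic acid against cantharidin.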

How the data were processed

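RNA of control, cantharidin and okadaic acid PANC-1 cells had been labelled with Cy3 and hybridised to 1-colour Agilent arrays. Samples were grouped by their titles. The authors deposited the intensity of every spot from Feature Extraction 11.0.1.1, background-subtracted and detrended within each array per the file headers, and flags for outlier, saturated and well measured spots as other values. A deposited table of log2 values, whose normalization is not given in the sources used here, served as an alternative. A single slide and a single scan held every array, so position on the slide and group cannot be told apart.

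Here, log2 of the processed intensity was averaged per probe over spots without outlier flags, and each array's 75th percentile was subtracted. A probe was well above background when more than 0.5 of its spots were. Probes were named by matching transcript accessions without version to RefSeq (GRCh38.p14), which named 25705 of 34041 probes. Array annotation used another build, so names only were taken from the match. A gene was compared when above background on either array of the comparison and called at 1.5-fold. Where 1 array was not above background, the fold was a bound, taken against the lowest reliable signal of that array or the dim signal itself, whichever was greater. Against the dim signal itself, the fold is that of the signals as measured and not a firm bound. No p-value was computed. Per-array values were given for genes at least 4-fold changed, higher, opposite or with disagreeing probes, and for most others. The members and gene lists were chosen with earlier results of these data known. No probe matched EME2. Some listed genes that the naming rule covers are not reported here. Counting and motif search were tested on simulated data. The 11 alternatives covered background correction (normexp, offset 50, on median spot intensity), scaling, filters, threshold, probe choice, dim signals raised to the array's lowest reliable signal, and the deposited table. Not every alternative could change every gene. Tools were R 4.3.3, limma 3.58.1, Python 3.11.15, numpy 2.4.6, pandas 2.3.3 and matplotlib 3.10.9. Precision is limited by having 1 array per group.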

Additional observations from a re-analysis of the deposited data

How the results depend on the processing

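Counts of lower genes stayed within 1.5 times the reported count in all 11 alternatives for both agents. For cantharidin, the deposited table gave 1 higher gene (XRCC2), beside 29.7% of all genes. The median difference was -0.86 with normexp, -1.47 without scaling, -1.16 without a filter, -1.46 in the deposited table and -1.49 over all probes of a gene. For okadaic acid, higher genes numbered 1 with normexp, 7 without scaling and 1 at 2-fold. The shares of all genes were 22.3%, 36.6% and 18.8% in the same order. The median was -0.58 under median scaling, -0.20 without scaling, -0.36 over genes above background on all arrays, -0.58 in the deposited table and -0.58 over all probes. For okadaic acid against cantharidin, 8 genes were higher at 2-fold, 1 was lower with quantile normalization and 1 in the deposited table (BARD1 in each), and the median was 0.36 with normexp, 0.53 under median scaling, 0.53 with quantile normalization and 1.07 without scaling. Leaving out the scaling moved the median of all genes from 0.01 to 0.26 for okadaic acid against control and from 0.13 to 0.52 for okadaic acid against cantharidin, which shifts every gene alike. FANCD2 reversed in okadaic acid against cantharidin, from 0.80 to -0.10 over its probes. Of 760 differences of single genes in the 8 alternatives other than filters and threshold, 450 moved by less than the spot noise. These include differences that could not move, such as those under another probe choice for genes with 1 probe. No paired analysis was possible because each group had 1 array. BARD1 (36.5) and RAD51AP1 (33.4) lay below the lowest reliable intensity of the okadaic acid array, 58.0. BRCA1 (59.1) and XRCC2 (64.5) lay just above it but were not flagged well above background there.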
